A study of Mus musculus with 52 samples.

Results

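The data described here are 4 RNA-seq libraries of GFP-negative cells sorted from the posterior pituitary, 2 of wild type (WT) mice and 2 of beta-catenin stabilized mice, chosen by their sample labels from the 52 samples of a series on endothelial cells (ECs) of brain and pituitary. WT mice carried the Tie2-GFP transgene, which labels ECs. Stabilized mice carried Tie2-GFP, Pdgfb-CreER and the Ctnnb1 flex3 allele (labeled BcatEx3fl), and received 4-hydroxytamoxifen (4HT) at postnatal day 10. Pdgfb-CreER is active in ECs, so the cells studied here are the neighbors of the targeted cells and not the targeted cells themselves. The Cre transgene and 4HT are therefore confounded with beta-catenin stabilization and cannot be told apart from it. All animals were adult males, and a replicate is a pool of 20 to 30 mice, aged 30 to 90 days, whose pituitaries were dissociated with papain before sorting. The question addressed is whether pituicytes and other non-endothelial cells of the lobe differ when beta-catenin is stabilized in its ECs.

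The posterior pituitary is neural tissue: axons of hypothalamic neurons release vasopressin and oxytocin there into fenestrated capillaries, and pituicytes, glia related to astrocytes, surround the axon endings. The cell bodies of those neurons lie in the hypothalamus, so most vasopressin and oxytocin mRNA is outside the lobe. The intermediate lobe is attached to the posterior lobe in the mouse, and its melanotrophs make proopiomelanocortin at very high levels. Beta-catenin is the transcriptional effector of canonical Wnt signaling. It is degraded unless Wnt ligands are received, and loss of the residues encoded by exon 3 of Ctnnb1 protects it from degradation.

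Transcripts are given as TPM (scaled within a library and by length) where genes are set beside each other, and as normalized CPM (read shares scaled with edgeR's TMM factors) where the same gene is followed across the 4 libraries. Values in other tissues and in GFP-positive cells are given in TPM, beside folds and tests from the counts. The 4 libraries held 18406617 to 34681485 estimated reads. At least 10 reads were found for 14096 and 12920 genes in WT and for 16678 and 15983 in stabilized libraries, although WT replicate 1 was the deepest. The WT libraries correlated less well with each other (Pearson r = 0.496 over 5865 genes with a mean of at least 10 TPM, log2(TPM + 1) scale) than the stabilized libraries did (r = 0.832), and WT replicate 2 stood apart from all other libraries, with r of 0.446 to 0.496. Mitochondrially encoded transcripts took 20.3% and 10.3% of reads in WT and 35.9% and 35.6% in stabilized libraries. Genes longer than 6000 bases took 2.21% and 3.06% of reads in WT and 1.47% and 1.09% in stabilized libraries. These library properties move with genotype. Fits that take up gene length are given with the genes that fell, and the part of the other properties in the results was not tested. The genotypes also differ in scale by method: over genes with at least 10 TPM the median difference of stabilized from WT was -0.86 on the log2(TPM + 1) scale but -0.03 in the edgeR fit, so no test between genotypes used TPM.

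Among the cell type markers those of melanotrophs were the most abundant in the cells labeled posterior pituitary. Pomc, the proopiomelanocortin gene, took 4.14% to 9.45% of reads and stood at 53739 and 55689 TPM in WT and at 27436 and 41280 TPM in stabilized libraries. All 7 melanotroph markers were at 9.23 TPM or more in every library, among them Oacyl (114 to 229 TPM), Pcsk2, the convertase that cleaves proopiomelanocortin (107 to 246 TPM), Drd2, the dopamine receptor of melanotrophs (28.6 to 138 TPM), and Tbx19 (25.3 to 119 TPM). Most of the melanotroph signal was Pomc: the other 6 markers came to 503 and 885 TPM in WT and to 318 and 333 TPM in stabilized libraries, beside 428 and 268 TPM and 247 and 330 TPM for the 9 pituicyte markers and 673 and 741 TPM and 466 and 450 TPM for the glial genes shared with astrocytes. Among the pituicyte markers Scn7a, a sodium channel of glia, was at 8.93 to 24.2 TPM and Col25a1 at 14.3 to 36.6 TPM. The pituicyte transcription factors were low in most libraries: Rax was at 0 and 8.76 TPM in WT and at 0.547 and 1.10 TPM in stabilized libraries, Nkx2-1 did not exceed 1.12 TPM, and Lhx2 did not exceed 2.68 TPM. Mest (205 to 372 TPM) is on the pituicyte list but is also made by other cells. The libraries are therefore named here by their dissection and gate, as posterior pituitary GFP-negative cells, and not as pituicytes. The 10 EC markers summed to 3.53 to 7.18 TPM in 3 libraries and to 34.0 TPM in stabilized replicate 2, where Esam stood at 32.8 TPM. Pecam1 and Cdh5 stayed at or below 0.689 TPM in every library, Kdr was at 0.754 to 1.84 TPM and Egfl7 reached 4.55 TPM in WT replicate 1. Counted in reads, Esam had 0 and 3 in WT and 68 and 84 in stabilized libraries, so its gap between the stabilized libraries is on the TPM scale only. Prl, the prolactin gene of the anterior lobe, was at 120 and 119 TPM in WT and at 26.1 and 2.52 TPM in stabilized libraries.

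**Figure D1:**
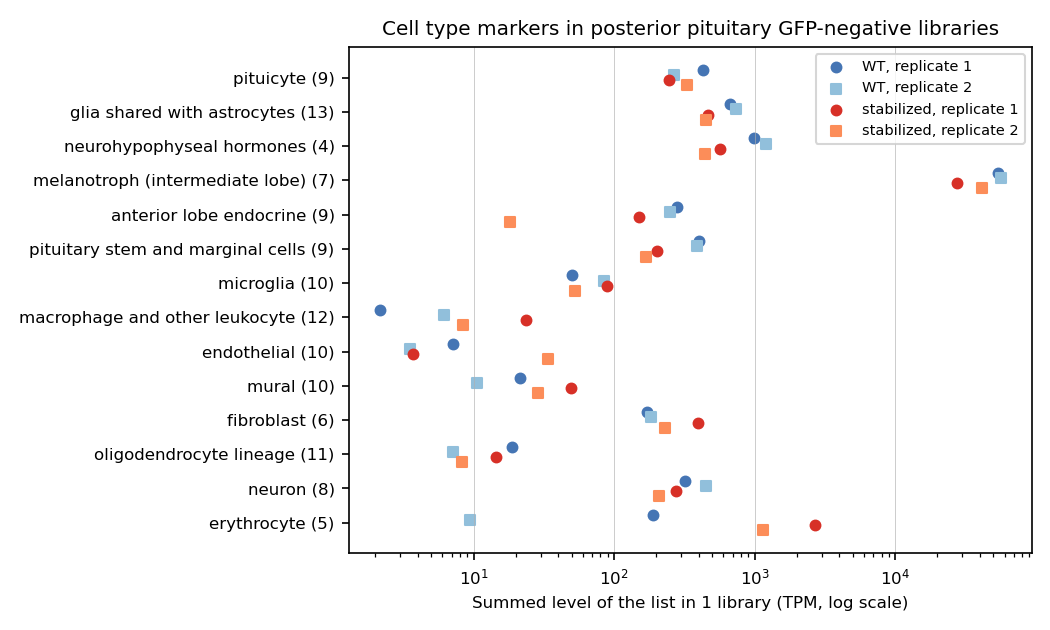
Summed TPM (log scale) of each cell type marker list in each posterior pituitary GFP-negative library; the number of markers is in parentheses, circles are replicate 1 and squares replicate 2. The melanotroph list is above every other list in all 4 libraries, and the erythrocyte list runs from 9.37 TPM in WT replicate 2 to 2675 TPM in stabilized replicate 1.

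By edgeR's test over 12 libraries few genes differed between genotypes in these cells beyond the spread of replicates. Of 19612 genes tested, 17 rose in stabilized mice (0.0867% of those tested) and 9 fell (0.0459%), at an adjusted p under 0.05 in edgeR's quasi-likelihood test and a fold change of at least 2. At an unadjusted p under 0.05, 1264 genes were higher and 685 lower. The fit shares 1 estimate of the spread over 12 GFP-negative libraries of 3 tissues, because 2 libraries a group leave few degrees of freedom. When only the 4 libraries compared were fitted, none of the 26 genes was called, and the smallest adjusted p over all genes was 0.0561 with 2053 genes at an unadjusted p under 0.05. All 26 genes kept their sign under each of the 12 alternative fits. Each of them separates the genotypes in normalized CPM in the libraries it was chosen on, so a turned sign was unlikely. Nothing is read from the kept signs. DESeq2 called 584 genes higher and 235 lower, the replicate block gave 109 and 48, and leaving out 1 library gave 83 to 487 and 14 to 130, with 83 and 26 without WT replicate 2. Over all genes the shares at an unadjusted p under 0.05 were thus 6.45% higher and 3.49% lower, and those called by DESeq2 2.98% and 1.2%. List counts given below stand beside these shares, and 1 or 2 members at an unadjusted p or in DESeq2 are not read as a result about a list.

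Of the genes that fell the largest difference was that of Hspa1b, an inducible HSP70 chaperone of the heat shock response. Hspa1b lies on chromosome 17 (34956436 to 34959238, GRCm38, minus strand). It was at 578 and 791 normalized CPM in WT and at 68.2 and 41.3 in stabilized libraries, with no overlap, and fell by 3.64 on the log2 scale (SE 0.51, adjusted p = 0.0221). Its near-identical neighbor Hspa1a was at 220 and 158 normalized CPM in WT and at 53.0 and 28.8 in stabilized libraries, and was not called (log2 fold change -2.20, SE 0.55, adjusted p = 0.165). Because reads of these copies can be split between them, their sum was taken, and it was 797 and 949 normalized CPM in WT against 121 and 70.2 in stabilized libraries. Hspa1b kept its call in 10 of 12 alternative fits, the exceptions being the fit of the 4 libraries alone (adjusted p = 0.246) and that of the 8 posterior pituitary libraries (adjusted p = 0.169).

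The promoters of both copies are shown because the heat shock element, the sequence bound by heat shock factors, is what defines their class. Each run covers 250 bases before to 50 bases after the RefSeq start on the minus strand of chromosome 17 of GRCm38.p6, at chr17:34959189-34959488 for Hspa1b and chr17:34972107-34972406 for Hspa1a. Capitals mark the heat shock element core GAANNTTC, which reads the same on both strands.
Hspa1b: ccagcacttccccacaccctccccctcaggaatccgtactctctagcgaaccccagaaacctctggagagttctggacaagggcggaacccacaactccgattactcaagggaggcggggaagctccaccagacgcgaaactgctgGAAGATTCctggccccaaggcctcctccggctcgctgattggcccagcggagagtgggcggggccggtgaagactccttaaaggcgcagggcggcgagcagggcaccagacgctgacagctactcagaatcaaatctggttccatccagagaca
Hspa1a: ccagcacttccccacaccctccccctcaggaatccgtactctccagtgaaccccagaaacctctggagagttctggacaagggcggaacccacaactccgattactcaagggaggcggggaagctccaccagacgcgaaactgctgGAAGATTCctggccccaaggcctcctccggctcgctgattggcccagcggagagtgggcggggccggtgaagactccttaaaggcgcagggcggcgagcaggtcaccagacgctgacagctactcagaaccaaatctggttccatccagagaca
Each promoter held 1 match, which began 104 bases before the annotated start. The core was found in 7.86% of 32851 promoters of the same length, in 5 of the 21 promoters of the immediate early and dissociation stress list, in 1 of 10 promoters of the genes that fell and in 2 of 14 of the genes that rose. A match is a description of the sequence and not evidence of binding.

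Others that fell were Kmt2d, Arid1a, Spen, Zmiz1 and Chd5, which encode a histone methyltransferase, a remodeling subunit, a corepressor, a coregulator and a chromodomain helicase, and Bsn and Map1a, which encode the presynaptic scaffold Bassoon and a microtubule-associated protein. Arid1a was at 170 and 230 normalized CPM in WT and at 47.0 and 45.4 in stabilized libraries (log2 fold change -2.11, SE 0.30, adjusted p = 0.0221). Bsn was at 50.5 and 36.8 in WT and at 9.80 and 6.18 in stabilized libraries (log2 fold change -2.45, SE 0.39, adjusted p = 0.0403). Kmt2d, Spen, Zmiz1, Chd5 and Map1a fell by 2.09 (Spen) to 2.44 (Map1a) on the log2 scale. In all 9 genes both stabilized libraries were below both WT libraries, as in 15.2% of all tested genes, but the genes were chosen by the test on these libraries and nothing is read from this.

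The median effective length of the 9 genes that fell was 4167 bases, against 1836 bases for the 17 that rose and 1081 bases for all tested genes. Over all genes the genotype difference also followed length: the median log2 fold change was 0.52 for genes of 500 bases or less, 0.05 for those of 1000 to 2000 bases and -0.44 for the 347 genes over 6000 bases. The same bins ran from 0.22 to -0.09 in the anterior pituitary and, the other way, from -0.35 to -0.06 in the cerebellum. When the trend over length was removed from each library, an alternative chosen after seeing the data, Hspa1b, Kmt2d, Chd5 and Arid1a kept their calls and Bsn, Map1a, Zmiz1 and Spen lost them. Leaving out stabilized replicate 2 ended the calls of Bsn, Map1a, Zmiz1, Chd5, Arid1a and Spen. The 17 genes that rose kept their calls in both of these fits. With an offset for effective length, which scales each library's reads by its own estimate of each gene's length, 9 of the 17 genes that rose and 2 of the 9 that fell (Hspa1b and Map1a) kept their calls. Kmt2d (adjusted p = 0.0685), Chd5 (0.337) and Arid1a (0.525) were among those that lost them.

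**Figure D2:**
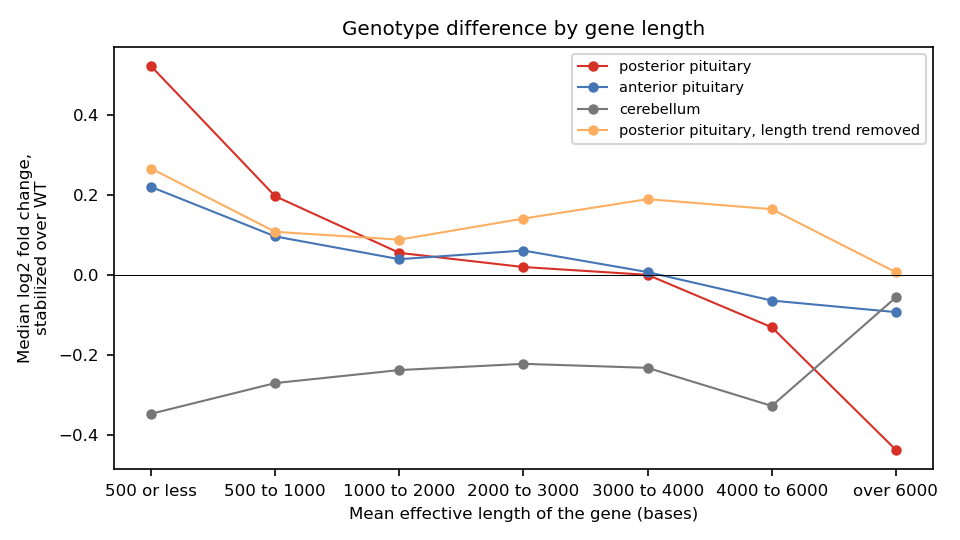
Median log2 fold change of stabilized over WT by the mean effective length of the gene, in GFP-negative cells of the posterior pituitary, anterior pituitary and cerebellum. In the posterior pituitary the median runs from 0.52 in the shortest bin to -0.44 in the longest, and from 0.27 to 0.01 after the length trend was removed.

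The genes that rose included mural cell genes and many genes that were near 0 in WT. Mural cells are the pericytes and smooth muscle cells that wrap ECs. Rgs5, a regulator of G protein signaling typical of pericytes, was at 21.7 and 15.2 normalized CPM in WT and at 251 and 89.7 in stabilized libraries, and rose by a log2 fold change of 3.21 (SE 0.50, adjusted p = 0.0360). Pdgfrb, the receptor by which pericytes are recruited to vessels, was at 1.77 and 0.138 normalized CPM in WT and at 29.2 and 22.8 in stabilized libraries (log2 fold change 4.70, SE 0.81, adjusted p = 0.0489). Kcnj8, a subunit of the pericyte potassium channel, had 1 and 0 reads in WT and 140 and 155 reads in stabilized libraries (adjusted p = 0.0454). Of 10 mural markers, these 3 rose and none fell. All 10 fitted differences were positive, with a median log2 fold change of 2.96 beside 0.13 over all tested genes, and in 6 of 10 both stabilized libraries were above both WT libraries, as in 27.3% of all tested genes. The list summed to 45.5 and 25.3 normalized CPM in WT and to 358 and 152 in stabilized libraries. In TPM it summed to 21.5 and 10.6 in WT and to 49.7 and 29.0 in stabilized libraries, a smaller gap, and Rgs5 overlapped between genotypes (14.3 and 3.61 against 33.8 and 11.3 TPM). With the offset for effective length all 3 lost their calls: Rgs5 had an adjusted p of 0.380 (log2 fold change 1.99), Pdgfrb of 0.130 and Kcnj8 of 0.0889. Over the 12 alternative fits Rgs5 and Pdgfrb were called in 9 and Kcnj8 in 10. Of all 17 genes that rose, the fit of the 8 posterior pituitary libraries kept 3 calls. In GFP-positive cells of the same lobe the summed mural list was at 163 and 84.2 TPM in WT and at 55.8 and 48.8 TPM in stabilized libraries. Rgs5 made up most of that sum, at 123 and 59.4 TPM in WT and at 36.2 and 30.9 TPM in stabilized libraries. Kcnj8 overlapped there, at 8.91 and 6.54 against 11.9 and 5.84 TPM. The test of the difference between the gates called 0 of the 10 mural genes (adjusted p = 0.0901 for Rgs5 and for Kcnj8, edgeR). Whether the mural levels of the 2 gates are related was not tested. In bulk libraries like these, more cells of a type and more RNA per cell cannot be told apart.

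**Figure D3:**
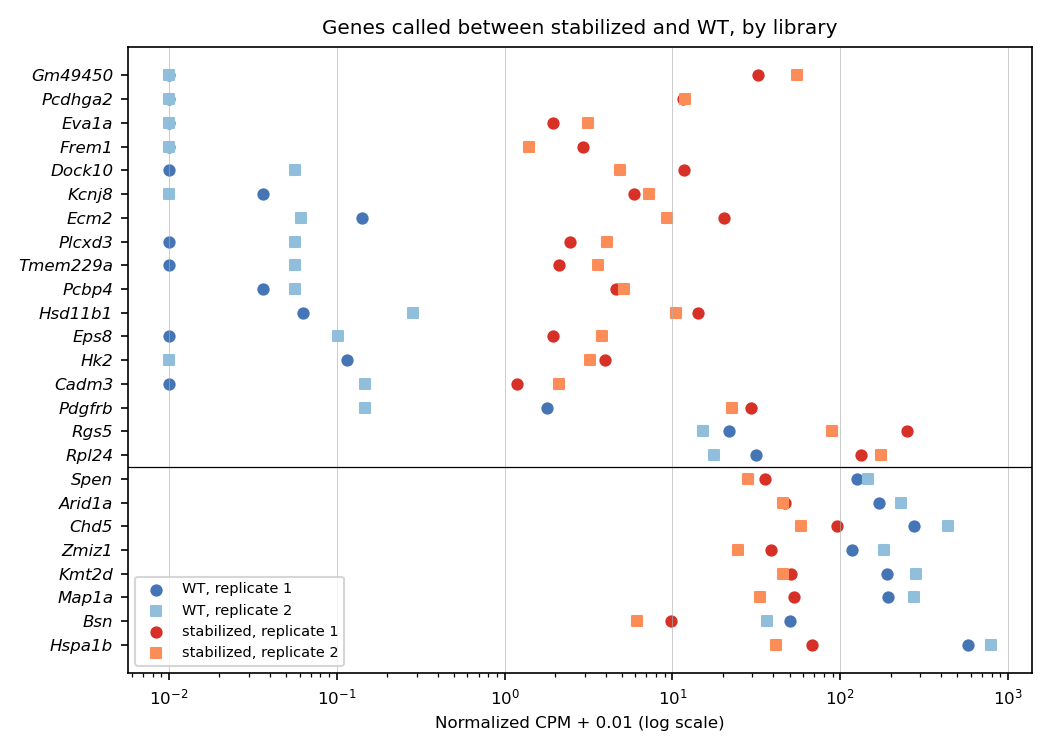
Normalized CPM + 0.01 (log scale) in each library for 25 of the 26 genes called between stabilized and WT, ordered by fold change, with 8 that fell under the line; circles are replicate 1 and squares replicate 2. In every row both libraries of a genotype lie on the same side of both libraries of the other. Over all tested genes 27.3% had both stabilized libraries above and 15.2% below, and the genes shown were chosen by the test on these libraries, so nothing is read from this. The 14 genes above Pdgfrb are at 0.276 normalized CPM or less in WT.

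The other genes that rose have varied functions, from the ribosome to the extracellular matrix. Rpl24, which encodes a protein of the large ribosomal subunit, was at 31.4 and 17.8 normalized CPM in WT and at 133 and 174 in stabilized libraries (log2 fold change 2.64, SE 0.43, adjusted p = 0.0403). It lost its call without WT replicate 2 (adjusted p = 0.0525) and with the offset for effective length (adjusted p = 0.110), where Hk2 (0.0635), Plcxd3 (0.0749), Eva1a (0.0905) and Pcbp4 (0.204) lost theirs too. Hsd11b1, which regenerates active glucocorticoid from its inactive form, was at 0.0529 and 0.276 in WT and at 14.2 and 10.5 in stabilized libraries (adjusted p = 0.0126). Ecm2, an extracellular matrix protein, was at 0.132 and 0.0511 in WT and at 20.2 and 9.34 in stabilized libraries (adjusted p = 0.00731). Ecm2 kept its call in 11 of 12 alternative fits. Hk2, a hexokinase of glycolysis, was at 0.106 and 0 in WT and at 3.94 and 3.20 in stabilized libraries (adjusted p = 0.0403).

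Dock10, Cadm3, Eps8, Pcbp4, Tmem229a and Plcxd3 rose from at most 0.138 normalized CPM in either WT library to between 1.17 and 11.7 in the stabilized libraries. Their levels in stabilized libraries ran from 0.231 TPM (Tmem229a) to 10.8 TPM (Pcbp4), so most stayed low. Frem1 (0.156 and 0.334 TPM) and Hk2 (0.800 and 0.611 TPM) were low there as well. Frem1, Eva1a, Pcdhga2 and Gm49450 had no reads in either WT library. Against a floor of 3 reads over both WT libraries, which covers counting error only, their share of reads was at least 32.7-fold (Frem1), 37.0-fold (Eva1a), 175-fold (Pcdhga2) and 643-fold (Gm49450) higher in stabilized libraries. The last pair needs care: Gm49450 overlaps Tuba1a and Tuba1b on the same strand, both at 179 normalized CPM or more in every library, and Pcdhga2 shares exons with the Pcdhg cluster, whose summed normalized CPM did not separate the genotypes (682 and 531 in WT, 599 and 575 in stabilized). Of the genes that rose, those outside the mural and glycolysis lists other than Rpl24 and Gm49450 were chosen for mention after their values were seen.

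Ribosomal protein genes were counted as a family after Rpl24 had been seen. Of 80 tested, edgeR called Rpl24 alone and DESeq2 called 16 higher, 40 were higher at an unadjusted p under 0.05, 67 had both stabilized libraries above both WT libraries, as 27.3% of all tested genes did, and the median log2 fold change was 1.17, beside 0.13 over all genes and 0.52 over those of 500 bases or less. Many are short, Rpl24 having an effective length of 253 bases, and the part of the length trend in their values was not tested. Rps18, of the small subunit, had 0 and 7 reads in WT and 3397 and 4216 in stabilized libraries (adjusted p = 0.0580). Rpl29, of the large subunit, was at 0.801 and 1.06 normalized CPM in WT and at 62.7 and 46.9 in stabilized libraries (adjusted p = 0.0676). Rps2 was at 4.53 and 19.1 in WT and at 203 and 227 in stabilized libraries (adjusted p = 0.0529), but summed with its annotated pseudogenes it was at 499 and 256 against 456 and 568, so its gap depends on how reads were assigned to copies. Summed with pseudogenes, Rps18 was at 0 and 155 reads in WT and at 3487 and 4375 in stabilized libraries, which lowered the ratio of mean normalized CPM from 1038 to 48.9, while that of Rpl29 stayed at 59.0.

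Among these 4 libraries vasopressin and oxytocin mRNA were detected in the stabilized ones only, without passing edgeR's test. Of the 4 genes of the neurohypophyseal list edgeR called 0, DESeq2 called 1, and 2 were higher at an unadjusted p under 0.05. Over the 12 alternative fits Avp was called in 1 and Oxt in 0. Avp, the vasopressin gene, had 0 and 0 reads in WT and 421 and 224 in stabilized libraries, which corresponds to 23.1 and 11.7 TPM (adjusted p = 0.282). Oxt, the oxytocin gene, which lies next to Avp on chromosome 2, had 0 and 0 reads in WT and 316 and 69 in stabilized libraries, which corresponds to 17.4 and 3.62 TPM (adjusted p = 0.384). At the floor of 3 reads over both WT libraries the shares of reads were at least 211-fold (Avp) and 126-fold (Oxt) higher, and the floor itself corresponds to at most 0.385 TPM. These limits cover counting error only. Neither gene had a read in GFP-negative cells of the anterior pituitary or cerebellum of either genotype. In GFP-positive cells of the posterior pituitary Avp reached 3.19 TPM and Oxt 2.87 TPM in WT replicate 1, so reads of both genes did occur in WT tissue. The other members of the neurohypophyseal list did not follow: Pdyn, the prodynorphin gene, was at 66.1 and 24.2 normalized CPM in WT and at 53.3 and 60.6 in stabilized libraries, and Scg2, which encodes a granin of secretory granules, at 1993 and 1752 against 1675 and 1556.

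No pituicyte gene passed the test at the depth and spread of these libraries. None of 9 pituicyte markers was called by edgeR or by DESeq2, 1 was at an unadjusted p under 0.05, and the median log2 fold change was 0.37. Scn7a came closest, at 175 and 75.6 normalized CPM in WT and at 210 and 428 in stabilized libraries (log2 fold change 1.35, SE 0.60, adjusted p = 0.486). Col25a1 was at 192 and 128 in WT and at 152 and 260 in stabilized libraries, and Mest at 959 and 390 against 700 and 948, so both groups overlapped. Standard errors over the 9 genes ran from 0.60 to 2.92 on the log2 scale, wide enough that a change of several fold in most of them could have been missed.

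Glial genes shared with astrocytes gave the same count: 0 of 13 passed edgeR's test, 2 were at an unadjusted p under 0.05, DESeq2 called 1, and the median log2 fold change was 0.40. Clu, the clusterin gene, was at 496 and 469 normalized CPM in WT and at 332 and 377 in stabilized libraries (adjusted p = 0.650). Glul, the glutamine synthetase of glia, was at 169 and 151 in WT and at 315 and 192 in stabilized libraries (adjusted p = 0.534). Gja1, a gap junction subunit, was at 13.9 and 23.3 in WT and at 29.0 and 57.3 in stabilized libraries (adjusted p = 0.366). The genotypes do not overlap in these 3 genes, which lie on either side of no change, but they do in the abundant members Apoe and Aldoc. Of the 13 genes 5 had both stabilized libraries above both WT libraries and 2 below, beside 27.3% and 15.2% of all tested genes. Glul turns with the scale, at 102 and 117 TPM in WT and at 72.3 and 43.4 TPM in stabilized libraries. Gfap, the astrocyte filament gene, had no reads in WT and did not exceed 1.26 TPM in stabilized libraries. Of 14 reactive glia genes 0 passed, 3 were at an unadjusted p under 0.05 and DESeq2 called 1.

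Melanotroph genes gave the same result. None of 7 was called by edgeR or by DESeq2 and none was at an unadjusted p under 0.05, with a median log2 fold change of -0.13. Pomc was at 86516 and 58331 normalized CPM in WT and at 47005 and 85497 in stabilized libraries, a spread within each genotype as wide as that between them. Genes of peptide secretion gave 0 of 16 by edgeR, 2 lower at an unadjusted p under 0.05 and 1 by DESeq2. Chgb, the chromogranin B of secretory granules, was at 1344 and 1088 normalized CPM in WT and at 647 and 498 in stabilized libraries (adjusted p = 0.343), and Chga, its relative, at 793 and 799 against 484 and 514 (adjusted p = 0.586). The proopiomelanocortin processing enzymes Cpe and Pcsk2 overlapped between genotypes. Prl was at 125 and 96.1 normalized CPM in WT and at 25.6 and 3.02 in stabilized libraries (adjusted p = 0.200), and Cga, the shared alpha subunit of anterior lobe hormones, at 65.0 and 39.9 against 77.0 and 9.34. Of 9 anterior lobe markers 0 were called by edgeR, 1 higher and 3 lower were at an unadjusted p under 0.05, and DESeq2 called 1.

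No gene of the blood and connective tissue lists passed edgeR's test. The 5 erythrocyte genes summed to 107 and 1.66 normalized CPM in WT and to 2159 and 1035 in stabilized libraries. All 5 had both stabilized libraries above both WT libraries, as 27.3% of all tested genes did, and 4 were at an unadjusted p under 0.05, but none was called by edgeR and 3 by DESeq2. The alpha globin copies Hba-a1 and Hba-a2 together were at 10.1 and 0.230 normalized CPM in WT and at 305 and 164 in stabilized libraries, and Hba-a1 alone had an adjusted p of 0.0676. The beta globin gene Hbb-bs was at 79.0 and 1.43 normalized CPM in WT and at 1665 and 787 in stabilized libraries, so the WT libraries also differed widely from each other. Of 6 fibroblast genes none was called by edgeR, 3 were at an unadjusted p under 0.05 and DESeq2 called 3. Dcn, the decorin gene, was at 135 and 101 normalized CPM in WT and at 627 and 410 in stabilized libraries (log2 fold change 2.13, SE 0.43, adjusted p = 0.0741), and Lum, the lumican gene, at 22.5 and 5.39 against 144 and 75.6 (adjusted p = 0.282). The collagen genes Col1a1 (30.9 and 41.3 in WT, 71.6 and 29.7 in stabilized libraries) and Col3a1 overlapped between genotypes.

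No gene of the immune lists passed edgeR's test either. The 12 macrophage and other leukocyte markers summed to 19.8 and 16.0 normalized CPM in WT and to 76.6 and 37.1 in stabilized libraries. Of these 0 were called by edgeR, 6 were at an unadjusted p under 0.05 and DESeq2 called 2. Of the 12, 8 had no read in WT, and the median log2 fold change was 7.86 as fitted and 3.94 with such genes at the 3 read floor. Fcrls, a receptor gene of microglia, was at 0 and 0.0461 normalized CPM in WT and at 23.3 and 16.1 in stabilized libraries (adjusted p = 0.0676). Of 10 microglia markers 0 were called by edgeR, 4 were at an unadjusted p under 0.05 and DESeq2 called 2. H2-Eb1, an MHC class II chain of antigen presenting cells, had no reads in WT and was at 42.4 and 6.55 normalized CPM in stabilized libraries (adjusted p = 0.0676), and Cd74, the invariant chain, was at 15.7 and 18.4 against 144 and 30.1 (adjusted p = 0.308). H2-D1, a class I chain and the most abundant member described here, was lower without overlap, at 213 and 240 in WT and at 173 and 140 in stabilized libraries (log2 fold change -0.54, adjusted p = 0.565). The MHC list as a whole gave 0 of 12 by edgeR, 4 at an unadjusted p under 0.05 and 2 by DESeq2. Summed levels of mural, erythrocyte, fibroblast and leukocyte lists were all higher in stabilized replicate 1 than in replicate 2, and their part in the genes that rose was not tested.

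**Figure D4:**
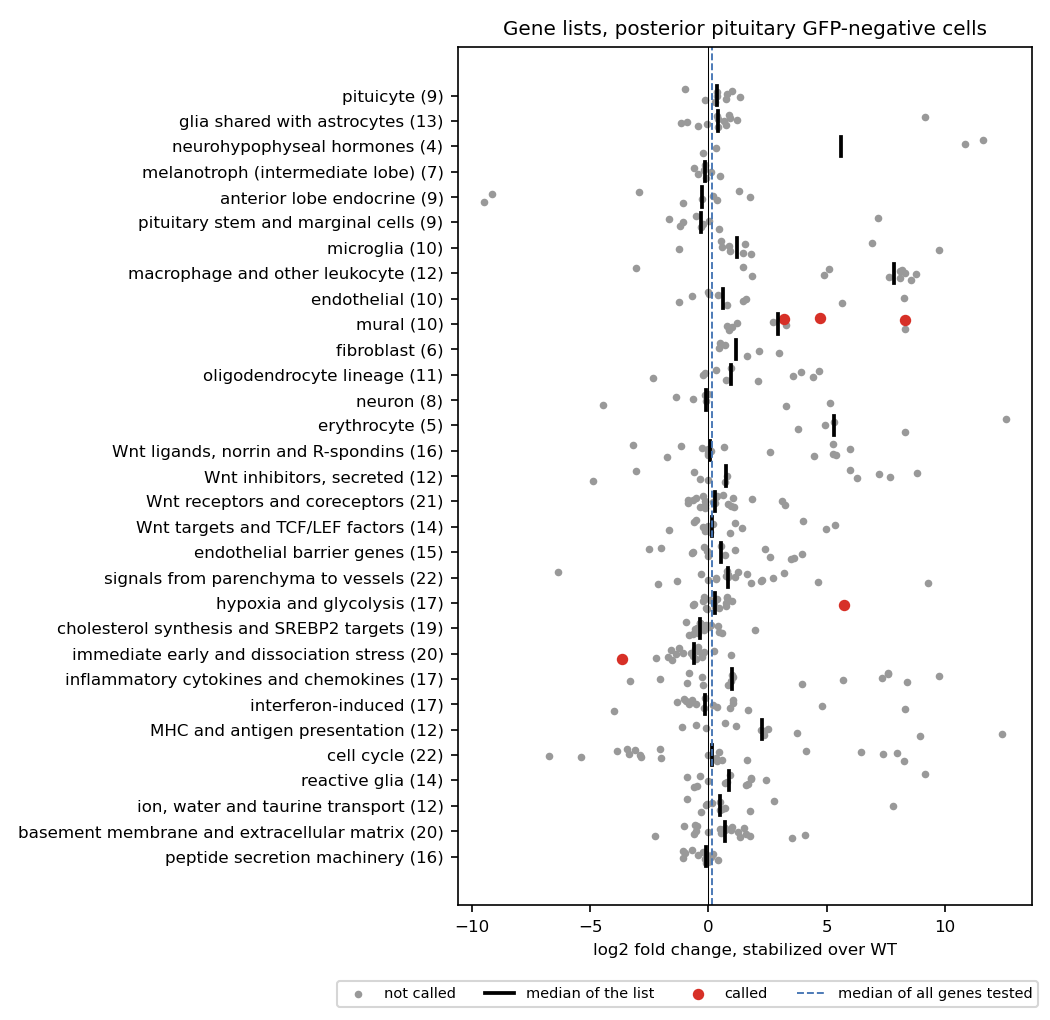
log2 fold change of stabilized over WT for each tested member of each list in posterior pituitary GFP-negative cells, with the number tested in parentheses, the list median (bar) and the median of all tested genes (dashed line, 0.13). The called genes are Rgs5, Pdgfrb and Kcnj8 (mural), Hk2 (hypoxia and glycolysis) and Hspa1b (stress). Values of genes with no reads in WT depend on the fit and are not measured folds.

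No canonical Wnt target passed edgeR's test in GFP-negative cells. Of 14 Wnt targets and TCF/LEF factors 0 were called by edgeR, 2 were at an unadjusted p under 0.05, DESeq2 called 2 and the median log2 fold change was 0.13. Axin2, a general target and feedback inhibitor of the pathway, was at 27.0 and 16.1 normalized CPM in WT and at 14.8 and 14.9 in stabilized libraries (log2 fold change -0.54, SE 0.66, adjusted p = 0.829). Lef1, a partner of beta-catenin on DNA, had at most 13 reads in any library. Ctnnb1, measured as a whole gene, was at 220 and 357 in WT and at 244 and 281 in stabilized libraries (log2 fold change -0.14, SE 0.38), and its sign turned with an offset for effective length and without WT replicate 2. A whole-gene count cannot show a deletion of exon 3. Among secreted Wnt inhibitors (0 of 12 tested called by edgeR and by DESeq2, 2 at an unadjusted p under 0.05) Wif1 did not exceed 0.287 TPM. Wnt ligands with norrin and R-spondins gave 0 of 16 tested by both tools and 1 at an unadjusted p under 0.05, and Wnt7a and Wnt7b, the ligands of brain vessels, were at 0.0527 TPM or less.

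Signals from the parenchyma to vessels gave 0 of 22 by edgeR, with 6 higher and 1 lower at an unadjusted p under 0.05 and 4 called by DESeq2. Vegfa, the growth factor that maintains fenestrated capillaries, was at 18.6 and 12.2 normalized CPM in WT and at 23.1 and 30.4 in stabilized libraries (log2 fold change 0.79, SE 0.48, adjusted p = 0.561), and its sign turned with an offset for effective length. Fgf1, a fibroblast growth factor, was at 4.61 and 9.08 in WT and at 42.4 and 47.0 in stabilized libraries (log2 fold change 2.71, SE 0.49, adjusted p = 0.0583). In cerebellum GFP-negative cells Fgf1 was called higher (log2 fold change 2.66, SE 0.49, adjusted p = 0.0286). In TPM the gap there was smaller, at 10.6 and 5.10 in WT and at 13.4 and 12.6 in stabilized libraries. In the anterior pituitary Fgf1 was not called (log2 fold change 1.42, SE 0.47, adjusted p = 0.716), and mean TPM lay the other way, at 7.72 in WT and 4.22 in stabilized libraries. Of the 17 hypoxia and glycolysis genes tested, Hk2 rose and no other was called, and Slc2a1, the glucose transporter GLUT1, was at 90.2 and 96.7 normalized CPM in WT and at 81.9 and 84.4 in stabilized libraries (adjusted p = 0.942).

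Apart from Hspa1b no stress gene passed edgeR's test. Of 20 immediate early and dissociation stress genes Hspa1b fell, none rose, 5 were lower at an unadjusted p under 0.05 and 9 had both stabilized libraries below both WT libraries, as 15.2% of all tested genes did, with a median log2 fold change of -0.61 beside 0.13 over all tested genes. DESeq2 called 4 lower. Jun was at 607 and 413 normalized CPM in WT and at 163 and 176 in stabilized libraries (log2 fold change -1.59, SE 0.46, adjusted p = 0.224). Fosb, which encodes a dimer partner of Jun, was at 1439 and 1134 in WT and at 555 and 535 in stabilized libraries (log2 fold change -1.24, SE 0.38, adjusted p = 0.272). Dnajb1, a co-chaperone of HSP70, was at 196 and 162 in WT and at 69.0 and 52.3 in stabilized libraries (adjusted p = 0.481). Fos itself overlapped, at 1548 and 431 in WT and 938 and 541 in stabilized libraries, and Egr1 and Nr4a1 overlapped as well. Junb, of the same family as Jun, was at 309 and 283 in WT and at 352 and 348 in stabilized libraries (log2 fold change 0.24, adjusted p = 0.970).

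Hspa1b also fell in the anterior pituitary. In anterior pituitary GFP-negative cells Hspa1b was at 189 and 295 TPM in WT and at 15.9 and 17.4 TPM in stabilized libraries, and fell by 4.09 on the log2 scale (SE 0.52, adjusted p = 0.0129). Posterior minus anterior effects came to 0.45 on the log2 scale (adjusted p = 1). In posterior pituitary GFP-positive cells it was at 1561 and 223 TPM in WT and at 21.9 and 24.4 TPM in stabilized libraries. Hspa1b was not called in cerebellum GFP-negative cells (log2 fold change -1.90, SE 0.48, adjusted p = 0.118). It was at 13.5 and 4.84 TPM in WT and at 3.72 and 1.04 TPM in stabilized libraries there. In cerebellum GFP-negative cells 7 of the 20 stress genes were called lower, as were 0.627% of all genes tested. Over the 20 genes the log2 fold changes had a median of -2.70 there, beside -0.26 over all genes, and of -1.01 in the anterior pituitary, beside 0.07.

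**Figure D5:**
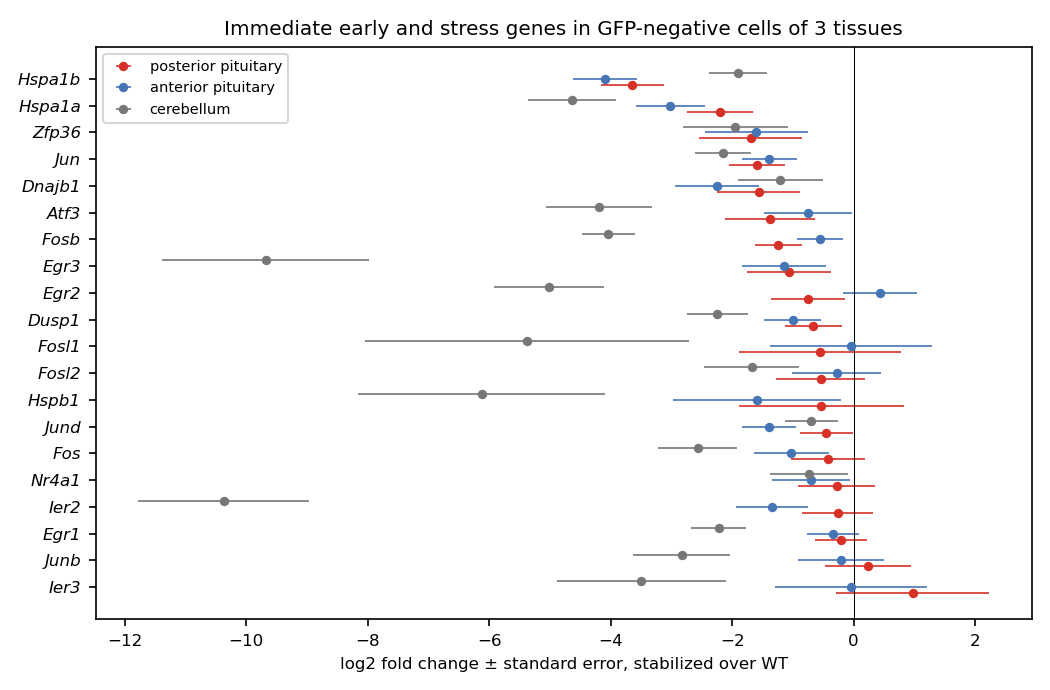
log2 fold change with its standard error of each of the 20 immediate early and dissociation stress genes, stabilized over WT, in GFP-negative cells of the posterior pituitary (red), anterior pituitary (blue) and cerebellum (gray). Hspa1b is at -3.64 in the posterior and -4.09 in the anterior pituitary, and in the posterior pituitary 18 of 20 genes lie below 0.

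How many genes differed between the lobes in their genotype effect depended on the fit. The lobes of a replicate's mice were separated at dissection, so anterior and posterior libraries can share animals, which the test of their difference leaves out of account. The anterior pituitary GFP-negative comparison called 8 genes in either direction (0.0408% of those tested), and the cerebellum comparison called 149 (0.76%). The test of the difference between posterior and anterior effects called 1 gene (0.0051%), the cadherin Cdh22 (difference -10.40 on the log2 scale, adjusted p = 0.0303), and that between posterior pituitary and cerebellum called 80 (0.408%). For the lobes, the replicate block gave 18 genes, no filter 203 and DESeq2 217. That block ties WT and stabilized libraries of the same number within a tissue, and does not tie the lobes to each other. Shared animals are thus left out of account there too. Rpl24 was among the genes whose effect differed between posterior pituitary and cerebellum, and was not called between the lobes (adjusted p = 0.385). It rose in the posterior pituitary, was at 204 and 365 against 174 and 298 TPM in the anterior pituitary (log2 fold change 0.12, SE 0.40, within the spread, with TPM means that lie the other way), and fell in the cerebellum, from 104 and 70.6 to 2.54 and 2.50 TPM (log2 fold change -4.63, SE 0.48, adjusted p = 0.00136). Rgs5 was not called in the anterior pituitary, at 15.7 and 10.9 TPM in WT and 56.2 and 39.7 TPM in stabilized anterior pituitary (adjusted p = 0.328, and for the difference between lobes 0.976). Gm49450 was again without reads in WT anterior pituitary and was called higher there (adjusted p = 0.0129), but was present in all 4 cerebellum libraries (7.62 to 41.3 TPM).

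The genotype effect on Slc2a1, and without a replicate block that on Axin2, differed between the parenchyma and the ECs of the same lobe. The difference of the genotype effect between GFP-negative and GFP-positive cells of the posterior pituitary was called for 54 of 17674 genes (0.306%). Axin2 was at 0.356 and 0.405 TPM in WT and at 26.7 and 28.1 TPM in stabilized GFP-positive cells, and its effect in GFP-negative cells was lower by a difference of -6.35 on the log2 scale (SE 0.70, adjusted p = 0.0138). Slc2a1 was at 21.1 and 24.8 TPM in WT and at 511 and 511 TPM in stabilized GFP-positive cells, with a difference of -6.02 (SE 0.44, adjusted p = 0.00244). The transporters Mfsd2a (-14.79) and Slco1c1 (-7.49) and the tricellular junction gene Lsr (-9.02) were also among those with a smaller effect in GFP-negative cells. Ecm2 was among those with a larger effect in GFP-negative cells (6.73, SE 0.90, adjusted p = 0.0277). Both gates were sorted from pooled pituitaries and can share mice, though the labels do not tie a replicate number to a pool. With the replicate number as a block 24 genes were called in place of 54. Slc2a1 (adjusted p = 0.0246), Slco1c1 (0.0246), Mfsd2a (0.0292) and Cpe (0.0292) were among them, whereas Axin2 (0.0523), Ecm2 (0.0913) and Lsr (0.147) lost their calls.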

How the data were processed

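RNA-seq of GFP-negative posterior pituitary cells was analyzed from 4 libraries (2 WT, 2 stabilized), beside the GFP-negative libraries of anterior pituitary and cerebellum and the GFP-positive libraries of the posterior pituitary. Per the methods of the study, cDNA was amplified with the NuGEN Ovation system and sequenced single-end for 75 cycles. The authors deposited estimated counts (Salmon's expected number of reads per transcript, not normalized) and TPM per transcript, corrected for sequence, GC and position bias with Ensembl release 92 transcripts of GRCm38. The submitters' processing notes name Salmon 0.10.2 and kallisto 0.44.0. Both values were summed here to genes of GENCODE M21 (0.127% to 0.294% of reads had no gene), and counts were rounded. Counts were tested with edgeR 4.0.16 in R 4.3.3 (TMM, filterByExpr, quasi-likelihood, 1 coefficient per group over 12 GFP-negative libraries, or over 8 posterior pituitary libraries for the comparison with GFP-positive cells) with Benjamini-Hochberg adjustment over all genes tested. Calls required an adjusted p below 0.05 together with a change of 2-fold or more. The standard error is the log2 fold change divided by the square root of F. The test was checked on simulated data.

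The members and the 31 gene lists were chosen with earlier results of these data known. Named genes are the 12 largest rises and falls among called genes with 10 TPM or more in each library of the higher genotype and no overlap (where fewer than 6 qualified, also the 6 smallest p in that direction, as not called), every called list member, up to 4 members of each list with the highest mean TPM, and Avp, Oxt, Ctnnb1, Axin2, Lef1, Slc2a1, Plvap, Cldn5, Vegfa and Wif1. Others named were chosen after their values were seen. Where nothing says that replicates were independent beyond separate pools, p-values measure the spread between these libraries. Alternatives were DESeq2 1.42.0, RLE, no filter, an effective length offset, a replicate block, other sets of libraries, leaving out each library, log2(TPM + 0.1) and log2(TPM + 1), and, chosen after seeing the data, removal of the length trend (loess, span 0.5). Replicate numbers did not pair WT with stabilized libraries. Promoters came from RefSeq (GRCm38.p6) and figures from matplotlib 3.10.9. ATAC-seq and RiboTag files were not used here, and a few genes are not reported here.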

Additional observations from a re-analysis of the deposited data

Results flagged for a closer look

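Differences between tissues in the genotype effect, tested as an interaction in edgeR, were found for 17 of the genes described above when posterior pituitary was set against cerebellum GFP-negative cells. Those above 0 were of Hba-a1 (14.74 on the log2 scale), Gm49450 (13.63), Pcdhga2 (10.50), Frem1 (10.23), Eva1a (9.34), Dock10 (8.80), Ecm2 (8.24), Pcbp4 (7.80), Rpl24 (7.27), Tmem229a (6.82), Hsd11b1 (6.65), Eps8 (6.28), Hk2 (6.16), Scn7a (5.96) and Col3a1 (5.43). Those of Gm49450, Pcdhga2, Frem1, Eva1a and Hba-a1 rest on WT posterior pituitary libraries with no reads, so their size is fitted and not measured. Scn7a and Col3a1 were not called in the posterior pituitary. Both were called lower in the cerebellum, Col3a1 by a log2 fold change of -5.00 (adjusted p = 0.00298) and Scn7a of -4.61 (adjusted p = 0.0206), where Scn7a was at 0.370 and 0.687 TPM in WT and at 0.00754 and 0.0248 TPM in stabilized libraries. Bsn (-3.32) and Zmiz1 (-2.79) differed in the other direction. With the replicate number as a block Pcbp4 (adjusted p = 0.0553) and Eva1a (adjusted p = 0.0623) lost their calls and the other 15 kept them.

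Within the posterior pituitary the genotype effect differed between GFP-negative and GFP-positive cells for Ecm2 (6.73), Axin2 (-6.35) and Slc2a1 (-6.02), and for Mfsd2a (-14.79), Lsr (-9.02), Slco1c1 (-7.49) and Cpe (-4.67), among the genes described above. With the replicate number as a block Axin2 (adjusted p = 0.0523), Ecm2 (0.0913) and Lsr (0.147) lost their calls. Posterior and anterior effects differed for Cdh22 (-10.40). Groups of 2 libraries were not tested for a sample far from the others.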

How the results depend on the processing

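The 4 libraries give a fit with 2 residual degrees of freedom, so counts of calls depend on how the spread was estimated. All 26 genes kept their sign in each fit, but they were chosen on these same libraries, which makes a turned sign unlikely. Of the 17 and 9 calls, the length offset kept 9 and 2, removal of the length trend 17 and 5, the fit of 8 libraries 3 and 1 and that of 4 libraries 0 and 0, so counts under these settings are partly of other genes. In the posterior pituitary, genes called higher and lower (17 and 9) were 584 and 235 with DESeq2, 373 and 186 without a filter, 12 and 5 with the length offset, 22 and 5 without the length trend, 0 and 0 in the fit of 4 libraries, and 37 and 3 in that of 8. Leaving out 1 library gave 83 to 487 higher and 14 to 130 lower, with the highest counts without WT replicate 1. Some genes that did not pass the main fit also depended on the setting. Over the 12 alternative fits Fgf1, Hba-a1, Rps18 and Rps2 were called in 8, and Rpl29 and Fcrls in 7.

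In the order anterior pituitary, cerebellum, posterior minus anterior, posterior minus cerebellum and GFP-negative minus GFP-positive, the calls (8, 149, 1, 80 and 54) were 287, 956, 217, 1097 and 621 with DESeq2, 251, 612, 203, 775 and 659 without a filter, and 5, 61, 0, 26 and 32 with the length offset. Without the length trend posterior minus anterior gave 2. Leaving out 1 library gave 34 to 60, 201 to 608, 36 to 231, 228 to 805 and 69 to 174. RLE left every count within 1.5 times.

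The replicate block gave 109 higher and 48 lower in the posterior pituitary, and 49, 206, 18, 205 and 24 in the other comparisons. That block ties WT and stabilized libraries of the same number within a tissue. Only in the last comparison does it tie both gates of the same genotype and number. The replicate numbers did not pair WT with stabilized libraries: same-numbered libraries had a correlation of deviations of -0.02 over 5865 genes.

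The log2 fold change of Ctnnb1 turned to 0.13 with the length offset and lay between -0.44 and 0.25 when 1 library was left out, and Vegfa to -0.028 with the length offset. Differences of mean log2(TPM + 0.1) and log2(TPM + 1), which have no test, were taken for part of the named genes. They moved 36 of these by more than the spread between replicates and left 8 within it at either pseudocount. Among these genes Vegfa turned sign there, to -0.89 and -0.82, and the log2(TPM + 1) scale gave smaller rises of low genes (Pdgfrb 0.97, Ecm2 1.23). Named genes outside this set can turn too: Glul, Junb, Col25a1 and Pdyn were higher in the fit but lower in mean TPM in stabilized libraries. The cause was not tested for any of these. With 2 libraries a group and a common dispersion of 0.845, only large and steady differences could pass, and a gene that did not pass is not shown to be alike.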

Other observations

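Lists of other processes gave no called gene in edgeR in posterior pituitary GFP-negative cells. Of 20 basement membrane and extracellular matrix genes 6 were higher at an unadjusted p under 0.05 and DESeq2 called 3. Sparc, a matrix protein secreted by glia, ECs and connective tissue, was at 54.0 and 28.4 normalized CPM in WT and at 131 and 150 in stabilized libraries (adjusted p = 0.0741), and Spp1, which encodes osteopontin, was at 11.3 and 0.645 against 90.6 and 48.7 (adjusted p = 0.272). Of 17 inflammatory cytokines and chemokines 5 were higher and 1 lower at an unadjusted p under 0.05, and DESeq2 called 4 higher and 1 lower. Cxcl1, a neutrophil attractant, was at 19.9 and 16.2 normalized CPM in WT and at 0.587 and 3.07 in stabilized libraries (adjusted p = 0.367), whereas Ccl2, a monocyte attractant, had no reads in WT and was at 3.98 and 3.62 in stabilized libraries (adjusted p = 0.205). For interferon-induced genes 2 of 17 were higher at an unadjusted p under 0.05 and DESeq2 called 1.

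Cholesterol synthesis genes gave 1 higher and 1 lower of 19 at an unadjusted p under 0.05 and 1 by DESeq2. Cell cycle genes gave 1 higher and 1 lower of 22 and none by DESeq2, and 11 fitted differences were above 0 and 10 below. Mki67, a proliferation marker, was at 16.4 and 5.76 normalized CPM in WT and at 1.89 and 0.139 in stabilized libraries (adjusted p = 0.497). Pcna went the other way, at 49.2 and 32.9 in WT and at 69.5 and 52.6 in stabilized libraries (adjusted p = 0.560). Of the genes of the endothelial barrier program 1 of 15 was higher at an unadjusted p under 0.05, of ion, water and taurine transport 1 of 12, of neurons 2 of 8 and of EC markers 1 of 10, and DESeq2 called 1 in each of these lists. Oligodendrocyte lineage genes gave 3 of 11 and none by DESeq2. Pituitary stem and marginal cell genes (0 of 9) and Wnt receptors and coreceptors (0 of 21) gave none at an unadjusted p under 0.05 and none by DESeq2. Mfsd2a, a lipid transporter of brain vessels, was at 8.82 and 4.56 normalized CPM in WT and at 1.42 and 1.86 in stabilized libraries (adjusted p = 0.536). The 13 mitochondrially encoded protein genes, counted after the data were seen, gave none in edgeR or DESeq2 and 2 at an unadjusted p under 0.05, with both stabilized libraries above both WT libraries in 10, as in 27.3% of all tested genes. They summed to 62861 and 25067 normalized CPM in WT and to 82832 and 75050 in stabilized libraries, and all mitochondrially encoded transcripts, ribosomal RNAs included, took 20.3% and 10.3% of reads in WT and 35.9% and 35.6% in stabilized libraries.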
